A study of Mus musculus with 2 samples.

Results

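The genes described here are the 4 Clk kinases (Clk1, Clk2, Clk3 and Clk4), the 3 Srpk kinases (Srpk1, Srpk2 and Srpk3) and the 2 Tra2 factors (Tra2a and Tra2b), 9 genes of the 44787 gene rows in the deposited table, chosen by name. The RNA came from the hindlimb muscle of mice on the C57BL/6 background, 30 days after birth, and was sequenced as 1 library of the wild type (WT) and 1 of the genotype labelled SRSF1-MKO. The labels do not spell out MKO, name no Cre line or promoter, and do not give the number or sex of the animals behind each library. Sex-linked RNA differs between the libraries, with values given below, so genotype and sex cannot be told apart for any gene described here. Levels are FPKM, the reads of a gene per kilobase of its model and per 1000000 reads, so that levels of different genes can be set side by side. With 1 library per group no test between genotypes was made, and every interval below covers the counting of reads only, not variation between animals or library preparations. The description lines of each sample contradict each other about which column is whose, so the genotype written in the column name was followed, and each direction below rests on that.

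SR proteins, of which SRSF1 is the founding example, carry a domain rich in arginine-serine repeats, and phosphorylation of those serines controls where the proteins are and what they bind. SRPK kinases act largely in the cytoplasm, where phosphorylation of the arginine-serine domain lets SR proteins be imported into the nucleus. CLK kinases act in the nucleus, phosphorylate the domain further and release SR proteins from nuclear speckles. TRA2 proteins carry such domains themselves and activate exons through GAA-rich enhancers. Transcripts of several of these genes are known to hold poison exons or introns that stay in the nucleus, by which the genes limit their own protein. SRPK3 is the member best known from skeletal and heart muscle, and in mouse its gene was found to be a target of the transcription factor MEF2.

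The CLK family is also called the LAMMER kinases, after the residues of a stretch in its kinase domain that the Srpk genes do not share. The coding bases of that stretch are shown because the family is named after it. The search pattern was written from the forms seen in the Clk genes, so its absence from the other 5 genes is no test. The exact LAMMER residues were not found in those 5 either. The capitals mark the 6 codons of the stretch, with 9 bases on each side, in the longest coding transcript of GENCODE release M21.
Clk1: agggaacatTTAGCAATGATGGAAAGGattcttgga
Clk2: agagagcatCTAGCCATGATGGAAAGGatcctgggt
Clk3: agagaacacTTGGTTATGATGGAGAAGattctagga
Clk4: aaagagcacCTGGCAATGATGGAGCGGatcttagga
Of the 36 bases, 21 are the same in all 4 genes. The exact LAMMER residues are encoded by 3 of the 4, and Clk3 carries a variant of them. The same 36 bases differ between Clk1 and Clk4 at 11 positions, and between Clk1 and Clk2 at 7.

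Srpk3 is shown with its promoter because it was the member with a lower level in SRSF1-MKO and the one known from muscle. The sequence below is the 250 bases before the RefSeq start (GRCm38.p6, chrX:73774155-73774404, plus strand), and the capitals mark 2 copies of CAGCTG, an E-box of the kind that MyoD family proteins bind, and 1 match to the MEF2 consensus.
Srpk3: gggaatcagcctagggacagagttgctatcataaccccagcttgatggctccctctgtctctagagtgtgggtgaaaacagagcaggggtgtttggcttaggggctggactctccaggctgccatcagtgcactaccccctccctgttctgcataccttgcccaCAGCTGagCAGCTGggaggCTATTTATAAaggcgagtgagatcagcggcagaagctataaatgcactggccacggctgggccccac
The E-boxes begin 86 and 78 bases before the start and the MEF2 match 67 bases before it, and the matches do not overlap. Both strands were searched, and CAGCTG reads the same on both. Of 32851 RefSeq promoter windows of this length, 2.92% hold the MEF2 consensus and 1.26% hold CAGCTG at 2 or more places, and 0.347% hold both motifs. Promoters of 8 of the 9 genes are in that table, Clk1 being the other gene. Neither motif was found in the windows of Clk2, Clk3, Clk4, Srpk1, Srpk2, Tra2a or Tra2b. A match describes these letters only, since binding was not measured. The table's own model of Srpk3 starts further upstream, at position 73773346, and its values imply a length of 3043 bases.

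Whole reads could be recovered from the FPKM values, with totals of 23146640 reads for WT and 21350284 for SRSF1-MKO, and the 9 genes together held 9036 and 11095 of them. Srsf1 itself was lower in SRSF1-MKO, with 13.7 against 6.70 FPKM and a ratio of 0.489. The gene length that its values imply is 11120 bases, more than the 6385 bases of genome that the table lists for it on an alternate scaffold and 1.95 times the 5710 exonic bases of GENCODE. Its level may therefore be understated in both columns, while the ratio does not depend on the length. The muscle fibre markers Acta1, Ckm, Myh4, Des, Mb and Tnnt3 were all high, and their levels summed to 65031 FPKM for WT and 33912 for SRSF1-MKO. Of these 6 genes 2 were higher in SRSF1-MKO, Des (1532 and 4385 FPKM) and Mb (242 and 2135 FPKM). Macrophage markers summed to 20.9 and 44.8 FPKM, with 8 of 8 higher in SRSF1-MKO. Schwann cell markers summed to 36.0 and 72.6 FPKM (4 of 5 higher) and endothelial markers to 69.2 and 47.0 FPKM (0 of 6 higher). Fibro-adipogenic markers summed to 447 and 313 FPKM, with 4 of 6 higher in SRSF1-MKO but Col1a1, the most abundant of them in WT, at 276 and 121 FPKM. Adipocyte markers summed to 261 and 338 FPKM, with 1 of 4 higher, Fabp4 at 246 and 334 FPKM. Satellite cell markers summed to 3.48 and 4.11 FPKM, with 2 of 4 higher. Defining markers such as Csf1r, Pecam1 and Pax7 were above 0 in both libraries. The part of these cell types in the values below was not tested, and in bulk tissue fewer cells of a type and less RNA per cell cannot be told apart.

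Tra2b was the only one of the 9 genes that differed by 1.5-fold or more on the log2(FPKM + 1) scale, and it was higher in SRSF1-MKO. Srpk3 was the only one that was lower, by less than 1.5-fold, and the other 7 lay between. All 9 genes passed the filter, a mean FPKM of 1, and the counts were 1 upward and 0 downward. Among all 10478 genes that passed it, 23.7% were past 1.5-fold upward and 8.13% downward, so 1 of 9 is no more than the table holds in general. The median log2 ratio of the 9 genes was 0.18, beside 0.21 over all that passed the filter. Over the 4991 genes whose mean reached 5 FPKM the median was 0.32. With that median set to 0, 3 of the 9 genes had a positive log2 ratio and 6 a negative one. In the values as deposited these counts were 8 and 1. Of all genes that passed the filter, 6900 were positive and 3578 negative as deposited. With the median of 0.32 set to 0, 4251 were positive and 6226 negative. On that scale Tra2b was still past 1.5-fold on the higher side, where 11.4% of all genes stood, and Srpk3 was past it on the lower side with 18.1% of all genes.

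**Figure D1:**
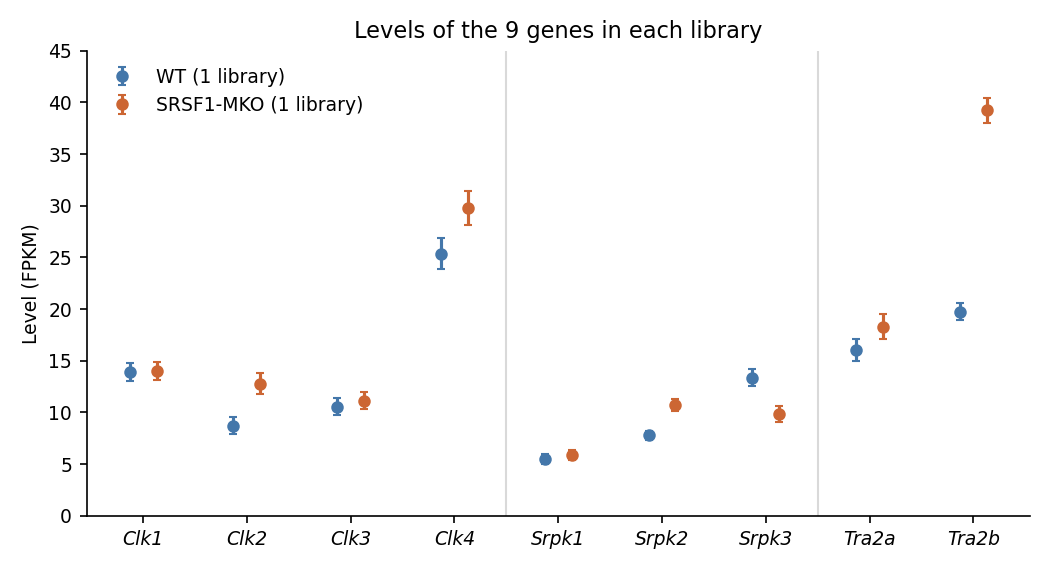
Level in FPKM (vertical axis, from 0) of each of the 9 genes, with 1 point for WT and 1 for SRSF1-MKO; bars are 95% Poisson intervals on whole reads and cover counting error only. Tra2b stands at 19.7 and 39.2 FPKM, Srpk3 is the gene whose WT value is clearly the higher, and the values of Clk1, Clk3 and Srpk1 overlap.

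In the plot of levels by library, the bars of the 2 libraries overlap for Clk1, Clk3, Srpk1 and Tra2a. They are apart for Clk2, Clk4, Srpk2, Srpk3 and Tra2b. The distance between points is on the deposited scale and would shrink or grow with another scaling.

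The SRPK kinases, which meet SR proteins first, stood in a different order of FPKM in each library. Srpk3 (ENSMUSG00000002007.5, GRCm38 chromosome X, 73774405 to 73778925, plus strand) stood at 13.3 FPKM in the WT library and at 9.82 in the other, on 940 and 638 reads. It was 1.36-fold lower in SRSF1-MKO, with an exact binomial interval of 1.23 to 1.51, and 12.6% of all genes had a smaller log2 ratio than its value of -0.41. Srpk2 (ENSMUSG00000062604.11, chromosome 5, 23503264 to 23684617, minus strand), a kinase found in many tissues, was at 7.78 and 10.7 FPKM, on 1159 and 1469 reads. Its ratio was 1.37 (1.27 to 1.49). Srpk1 (ENSMUSG00000004865.16, chromosome 17, 28587648 to 28622709, minus strand), the kinase by which SRSF1 import has mostly been studied, was at 5.48 and 5.84 FPKM, on 550 and 541 reads, and the interval of its ratio, 0.945 to 1.20, held 1. By FPKM the highest Srpk transcript was therefore that of Srpk3 in WT and of Srpk2 in SRSF1-MKO, where the intervals of both overlapped. This order rests on the gene lengths used. The implied length of Srpk3, 3043 bases, is longer than the 1981 of its longest coding transcript, while that of Srpk2, 6436, is close to 6491. A shorter length would raise Srpk3 in both columns, and the highest gene in SRSF1-MKO could then be another.

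The summed level of the 3 Srpk genes was nearly equal in both libraries, 26.6 against 26.3 FPKM, a ratio of 0.991. Within that sum Srpk3 went from 50.2% in WT to 37.3% in SRSF1-MKO and Srpk2 from 29.2% to 40.6%. Without Srpk3 the ratio of the sum was 1.247. Ratios between genes of the same library do not depend on how the columns were scaled. They do depend on the gene lengths used, while the change of such a ratio between libraries does not. The level of Srpk3 over that of Srpk2 was 1.72 in WT and 0.919 in SRSF1-MKO, a change of 0.536-fold (0.471 to 0.609 by counting). Srpk3 over Srpk1 was 2.44 in WT and 1.68 in SRSF1-MKO.

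Several measured facts bear on the Srpk values. Srpk3 lies on the X chromosome, and the libraries differ in sex-linked RNA. Xist, the RNA of the inactive X, stood at 0.00482 FPKM for WT and 8.15 for SRSF1-MKO. The Y-linked genes Ddx3y, Eif2s3y, Kdm5d and Uty were at 1.77 to 26.5 FPKM in WT and listed at 0 in SRSF1-MKO. Genotype and sex therefore cannot be told apart, for Srpk3 or for any other gene described here. The gene Idh3g, a subunit of mitochondrial isocitrate dehydrogenase, was looked up after the values were seen: its listed range starts 38 bases beyond the end of Srpk3 on the opposite strand, and it stood at 83.1 and 137 FPKM. Srpk2 overlaps Kmt2e, a gene of a chromatin protein on the opposite strand, by 972 bases, and Kmt2e was at 6.74 and 14.1 FPKM. The annotated genes Gm24009 and Gm43566 share 93 and 808 bases with Srpk2 on its own strand, and no value of theirs is used here. No source used here says whether the libraries kept strand, so reads from these overlaps and ends cannot be assigned, and their part was not tested. The table lists Srpk1 on an alternate scaffold (NT_187005), with an implied length of 4340 bases, close to the 4653 of its longest coding transcript.

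**Figure D2:**
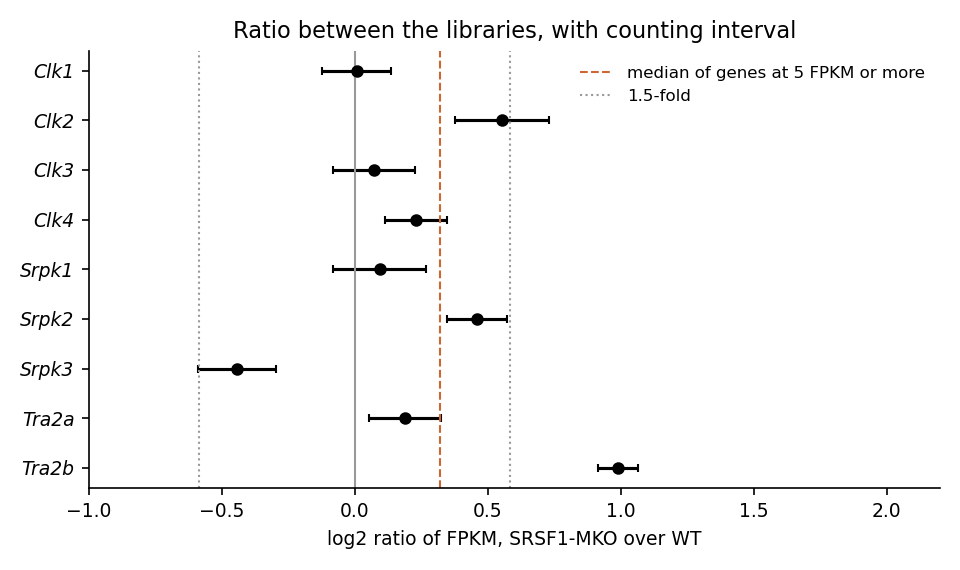
Ratio of FPKM on a log2 scale (horizontal axis, SRSF1-MKO over WT, no pseudocount) for each gene, with exact binomial 95% intervals on reads; the dashed line is the median log2 ratio of 0.32 and dotted lines mark 1.5-fold. The interval of Tra2b lies wholly past 1.5-fold and that of Srpk3 wholly below 0, while those of Clk1, Clk3 and Srpk1 hold 0.

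As the plot of ratios shows, counting intervals lay above a ratio of 1 for Clk2, Clk4, Srpk2, Tra2a and Tra2b. That of Srpk3 lay below it, and those of Clk1, Clk3 and Srpk1 held it. No such intervals are given here for all genes, of which 6900 of 10478 had a positive log2 ratio. How common each side is in general is therefore not shown. Against the median log2 ratio of 0.32, the intervals of Clk2, Srpk2 and Tra2b lay above. Those of Clk1, Clk3, Srpk1 and Srpk3 lay below, and those of Clk4 and Tra2a held it.

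Among the CLK kinases, which phosphorylate SR proteins inside the nucleus, Clk2 had the largest ratio and Clk1 and Clk3 were nearly level. Clk2 (ENSMUSG00000068917.12, chromosome 3, 89164795 to 89176921, plus strand) stood at 8.70 FPKM in the WT library and at 12.8 in the other, on 465 and 629 reads, a ratio of 1.47 (1.30 to 1.66). Its log2(FPKM + 1) difference was 0.50, short of 1.5-fold, and 27.9% of all genes had a larger one. Clk1 (ENSMUSG00000026034.17, chromosome 1, 58410189 to 58424066, minus strand), the family member whose inhibition and nuclear intron retention are best known, was at 13.9 and 14.0 FPKM, on 995 and 922 reads, with a ratio of 1.00 (0.918 to 1.10). Clk3 (ENSMUSG00000032316.8, chromosome 9, 57750624 to 57765860, minus strand) was at 10.6 and 11.1 FPKM, a ratio of 1.05 (0.944 to 1.17). Clk4 (ENSMUSG00000020385.16, chromosome 11, 51261730 to 51281766, plus strand), the closest relative of Clk1, was the most abundant of the kinases in both libraries, at 25.4 and 29.7 FPKM and a ratio of 1.17 (1.08 to 1.27).

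Clk4 thus made up 43.3% of the family's summed FPKM in WT and 44.0% in SRSF1-MKO, while Clk2 went from 14.9% to 18.9% and Clk1 from 23.8% to 20.7%. The sum was 58.5 against 67.6 FPKM, a log2 ratio of 0.21. Within a library, Clk2 over Clk1 was 0.625 in WT and 0.912 in SRSF1-MKO, a change of 1.46-fold (1.253 to 1.70). Clk1 over Clk3 was 1.32 and 1.26, a change whose interval, 0.830 to 1.10, held 1. In WT the level of Clk2 was below that of Clk3 by more than the counting intervals. In SRSF1-MKO the intervals of Clk1 and Clk2, of Clk2 and Clk3, and of Clk3 and Srpk2 overlapped. Clk3 shares 1876 bases with Edc3, a decapping gene on the opposite strand that was at 1.09 and 1.15 FPKM, and Clk4 shares 1317 bases with BC049762, which was listed at 0 in WT and at 0.0514 FPKM in SRSF1-MKO. The annotated RNA gene Gm25082 shares 255 bases with Clk4 on the same strand, and no value of it is used here.

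**Figure D3:**
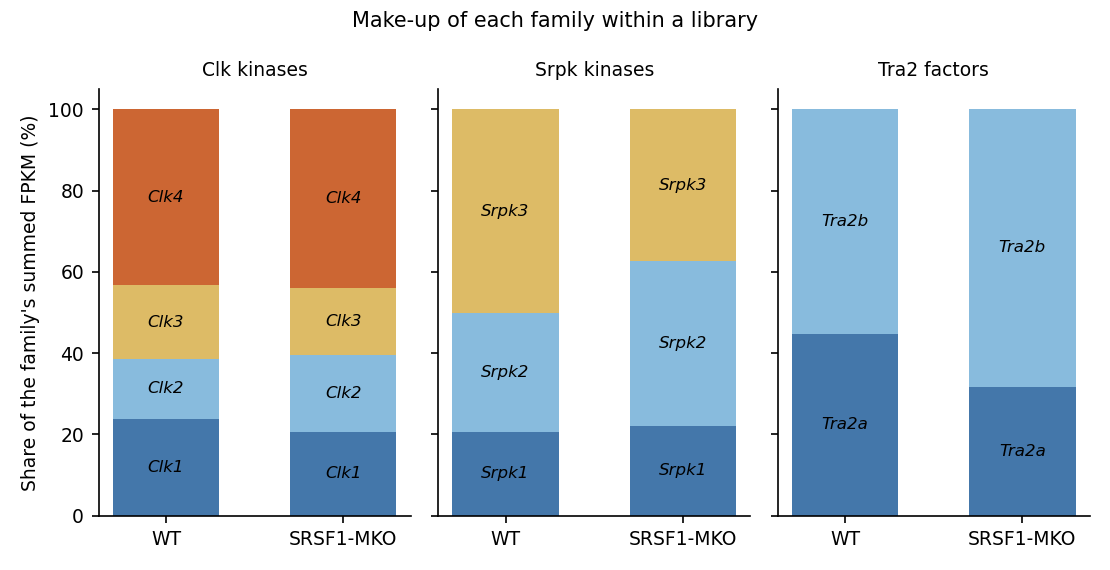
Share of each family's summed FPKM (vertical axis, percent, from 0) held by each gene, with 1 bar per library. Of the Clk sum, Clk2 goes from 14.9% to 18.9% and Clk1 from 23.8% to 20.7%. Srpk3 goes from 50.2% to 37.3% of the Srpk sum and Tra2b from 55.2% to 68.2% of the Tra2 sum.

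The shares in the plot of family make-up use levels within 1 library, so a scaling of whole columns leaves them as they are. They do rest on the gene lengths used. The largest shifts are those of Srpk3 against Srpk2 and of Tra2b against Tra2a.

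Of the Tra2 factors, which bind exonic enhancers next to SR proteins, Tra2b had the larger ratio between the libraries. Tra2b (ENSMUSG00000022858.16, chromosome 16, 22244549 to 22266005, minus strand) stood at 19.7 FPKM in the WT library and at 39.2 in the other, on 2226 and 4079 reads. Its ratio was 1.99 (1.89 to 2.09), and 10.3% of all genes had a larger log2 ratio than its 0.96. Its log2 ratio was positive in all 7 settings compared, between 0.63 and 0.99. Tra2a (ENSMUSG00000029817.11, chromosome 6, 49243924 to 49264033, minus strand), a close paralog that acts on many of the same exons, was at 16.0 and 18.3 FPKM, on 867 and 911 reads, a ratio of 1.14 (1.04 to 1.252). It shares 1612 bases with Gm43980 on the opposite strand, of which no value is used here. Tra2b over Tra2a was 1.23 in WT and 2.15 in SRSF1-MKO, a change of 1.74-fold (1.57 to 1.94). The sum of both was 35.8 and 57.5 FPKM. Tra2b, which ranked behind Clk4 in WT, ranked first of the 9 genes in SRSF1-MKO.

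The nearest genes at 1 FPKM or more beside Tra2b were Igf2bp2, an RNA-binding protein, at 0.598 and 3.69 FPKM, 82452 bases away, and the predicted gene Gm15776 at 2.72 and 5.20 FPKM, 28979 bases away. No other annotated gene overlaps Tra2b. The model length that its values imply is 4870 bases, longer than the 3403 of its longest coding transcript, so exonic sequence outside that transcript was counted with it. The same reads over a shorter length would give higher levels in both columns and the same ratio. Leaving out the reads of that other sequence could change both, which was not tested. Tra2b is not alone in this. The implied length was also the longer for Clk1 (3088 against 1796 bases), Srpk3 (3043 against 1981) and Tra2a (2336 against 1799). The excess was smaller for Clk2 (2310 against 2154) and Clk3 (2843 against 2496), and absent for Clk4, Srpk1 and Srpk2. Ranks, family shares and level ratios between genes therefore depend on the gene lengths used.

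**Figure D4:**
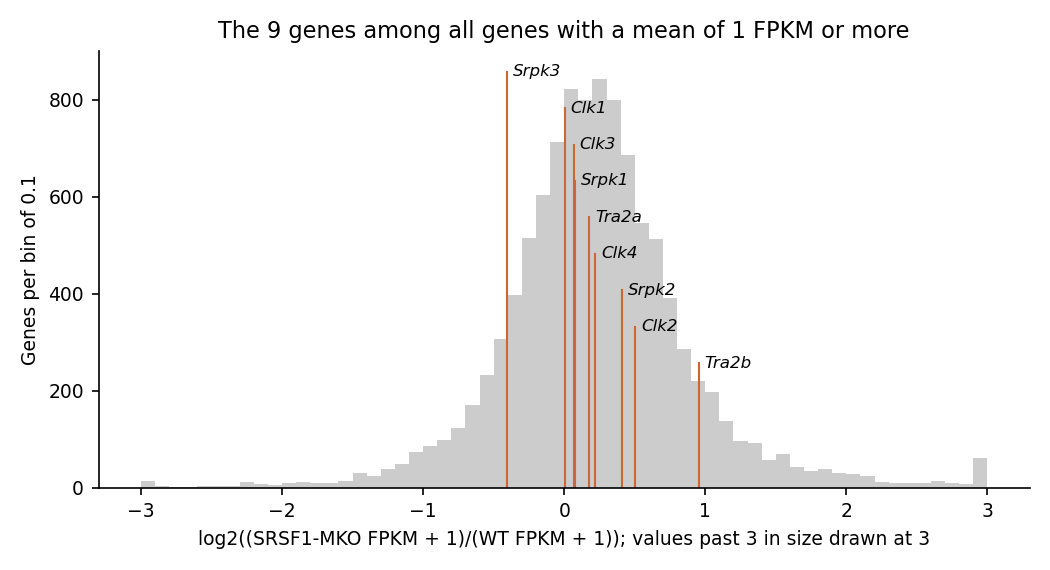
Number of genes (vertical axis) by log2((SRSF1-MKO FPKM + 1)/(WT FPKM + 1)) in bins of 0.1 for the 10478 genes that passed the filter, with lines for the 9 genes; line height carries no value. Most of the 9 lie near the middle of the distribution, Srpk3 on its lower side at -0.41 and Tra2b on its upper side at 0.96.

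The plot against all genes places Clk4 and Tra2a near the middle, with 48.4% and 52.1% of genes at a larger log2 ratio. Clk1, Clk3 and Srpk1 were somewhat to the lower side, with 65.3%, 60.7% and 59.7% of genes above them. Their log2 ratios, and that of Tra2a, were positive as deposited and negative once either median of all genes was set to 0. Levels were ordinary for expressed genes: in WT, 58.2% of genes were below Srpk1, the lowest of the 9, and 88.3% below Clk4. In order of WT level the genes were Clk4, Tra2b, Tra2a, Clk1, Srpk3, Clk3, Clk2, Srpk2 and Srpk1, and the intervals of neighbours overlapped for Clk1 and Srpk3 and for Clk2 and Srpk2. In SRSF1-MKO the intervals overlapped along the chain from Clk1 through Clk2, Clk3 and Srpk2 to Srpk3, so that this middle part has no clear order there.

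All of these values are sums over transcripts. GENCODE lists 88 transcripts for the 9 genes, of which 30 are coding, 13 are targets of nonsense-mediated decay and 39 retain an intron. All 9 genes have a retained-intron transcript, and 8 have a decay transcript, Srpk3 being the exception. Clk1 and Clk4 each have 7 retained-intron transcripts, and Tra2b has 3 decay transcripts, the class that its poison exon gives. A higher gene level can thus hold more coding or more unproductive RNA, and the table does not separate them.

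The genes that act with these kinases were described by lists chosen for their function. Of 10 measured SR proteins, the substrates, 1 was past 1.5-fold on each side, and the median log2 ratio was 0.10, where 23.7% of all genes were past 1.5-fold upward and 8.13% downward. The higher was Srsf11, at 26.2 and 50.4 FPKM in WT and SRSF1-MKO, and the lower was Srsf1 itself. Srsf10, an SR protein that acts as a repressor when it is dephosphorylated, was at 7.29 and 9.90 FPKM, and Srsf4 at 20.6 and 20.5. Of the 20 other splicing proteins with arginine-serine domains, 6 were past 1.5-fold upward and 1 downward (median 0.30). With the median of 0.32 taken off, the centring used for every list below, 1 and 1 were. Of all genes, 11.4% were then past it upward and 18.1% downward. Ddx46, a helicase of the spliceosome, was at 10.6 and 22.9 FPKM, and U2af1, which reads the end of the intron, at 56.0 and 104 FPKM. Rsrc1 was the lower member, at 9.73 and 4.91 FPKM, and Srrm1 was at 20.2 and 17.9.

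The enzymes that reverse the kinases' work showed a median of 0.38 over 8 measured genes, of which 3 were past 1.5-fold upward and 0 downward. Of all genes, 23.7% were past it upward and 8.13% downward, with a median of 0.21. Ppp2ca, a catalytic subunit of protein phosphatase 2A, was at 50.2 and 122.9 FPKM. Ppp1ca, a catalytic subunit of protein phosphatase 1, was at 58.1 and 99.9 FPKM, and its nuclear inhibitor Ppp1r8 at 5.93 and 9.94. Ppp1cc (21.5 and 19.6 FPKM) and Ppp1r10 (5.38 and 5.04) had the smallest ratios. Of the import receptors, Tnpo3, which carries phosphorylated SR proteins into the nucleus, was at 9.66 and 15.4 FPKM and past 1.5-fold. Tnpo1 was at 3.003 and 4.67 FPKM and Tnpo2 at 2.63 and 2.43, both short of it on the log2(FPKM + 1) scale. After centring, 1 phosphatase gene (Ppp2ca) and 0 import receptors were past 1.5-fold, beside 11.4% of all genes upward and 18.1% downward.

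Upstream of SRPK, Akt and chaperones direct the kinase to the nucleus or hold it in the cytoplasm. Of 9 measured genes there, 1 was past 1.5-fold upward and 2 downward (median 0.11), and 0 and 2 after centring. Of all genes, 23.7% were past it upward and 8.13% downward, and 11.4% and 18.1% after centring. The chaperone Hsp90aa1 was at 63.4 and 110 FPKM, and Akt2, the main Akt of muscle, at 27.4 and 38.6. The lower genes were Ahsa1, an activator of HSP90, at 42.7 and 20.8 FPKM, and Dnajc8, at 66.7 and 42.8. Among 10 measured kinases of the same larger group (CMGC), 1 was higher and 3 were lower by 1.5-fold, with a median of 0.22. After centring 0 were higher and 3 lower, beside the same shares of all genes. The DYRK kinases went apart: Dyrk1a was at 7.83 and 12.9 FPKM, Dyrk1b, known from muscle, at 13.4 and 6.46, and Dyrk2 at 12.7 and 6.88. Hipk2 was at 9.61 and 5.68 FPKM and Prpf4b, a kinase of the spliceosome, at 9.90 and 13.5.

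**Figure D5:**
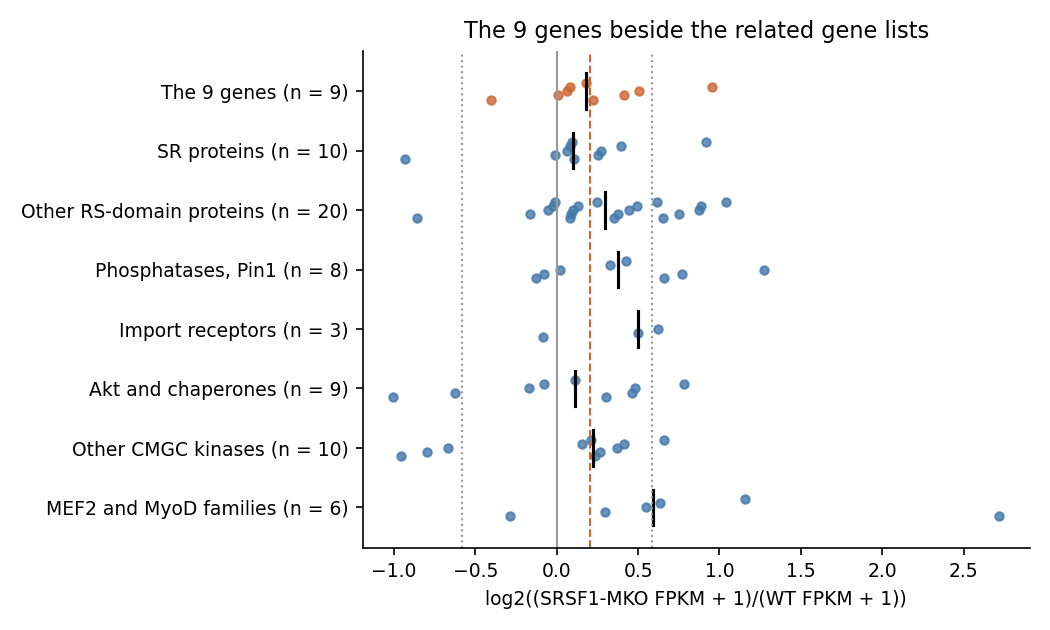
Log2((SRSF1-MKO FPKM + 1)/(WT FPKM + 1)) (horizontal axis) of the 9 genes and of the measured members of 7 related lists; points are genes, black bars are list medians, the dashed line is the all-gene median of 0.21 and dotted lines mark 1.5-fold. The medians lie between 0.10 for SR proteins and 0.59 for the MEF2 and MyoD families.

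The plot of related lists shows that each list spreads over both sides of its median, and the differences between list medians were not tested. The MEF2 and MyoD families are those whose motifs stand in the Srpk3 promoter printed above. Of their 6 measured genes, 3 were past 1.5-fold upward and 0 downward, with a median of 0.59, beside 23.7% and 8.13% of all genes. After centring 2 were past it upward and 1, Myod1, downward, with a median of 0.27, beside 11.4% and 18.1% of all genes. Myogenin (Myog) was at 8.87 and 64.1 FPKM, Myf6 at 74.5 and 168, and Mef2c, a MEF2 gene known to drive Srpk3 in mouse, at 77.7 and 121. Mef2a was at 15.1 and 18.7 FPKM, and Myod1 was the one with the smallest ratio, at 6.55 and 5.18.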

How the data were processed

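RNA of hindlimb muscle was sequenced in 2 libraries, 1 WT and 1 SRSF1-MKO, and the authors deposited FPKM values in a single table, a unit read from its name and its numbers. Bowtie and mm10 are named in the submitters' processing notes; no source used here gives the aligner's version, the gene models or how reads were counted. A line of the table that had been emptied is not analysed here, and both value columns were used.

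For 96.3% of the 19044 genes that both libraries detected, the ratio was that of whole reads multiplied by 1 constant (1.08; relative tolerance 2e-14, denominators to 20000), and for 0% with a slightly different constant. The commonest total among 1594 genes whose exons fill their span, given by 336 of them, was 23146640 reads for WT and implies 21350284 for SRSF1-MKO. With it 94.8% of genes gave whole reads and a whole gene length. These are the smallest whole solutions, so a common factor can be missed, which would make intervals too wide. Reads counted more than once would make them too narrow, and how reads were counted is not given. The recovery was tested on simulated data.

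Differences between libraries are on the log2(FPKM + 1) scale, which understates low genes, among genes whose mean reached 1 FPKM; 1.5-fold was the counting limit. Ratios of FPKM carry exact (Clopper-Pearson) 95% intervals, and changes of ratios within a library conditional exact intervals (SciPy 1.17.1). Coordinates are from GENCODE M21 (GRCm38, the assembly that mm10 names) and promoters from RefSeq (GRCm38.p6). The members and lists were chosen with earlier results of these data known. All 9 members are named. Of each list the text names the 2 largest and 2 smallest log2 ratios and, where 5 or fewer genes passed 1.5-fold, all of these, with overlapping genes and, for members past 1.5-fold, neighbours. Adgre1 was read under its older symbol. Scaling, pseudocount, filter and fold were varied.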

Additional observations from a re-analysis of the deposited data

How the results depend on the processing

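With 1 library per group, no library could be left out. No paired analysis was possible because each group holds 1 library. Scaling was the choice that moved the members most. Of 54 member values under 6 alternatives, 27 moved past the counting interval. All 27 did so under the 2 median centrings and the rescaling to a common sum. Clk1, Clk3, Srpk1 and Tra2a became negative under all of these 3, and Clk4 under 2 of them, whereas Clk2, Srpk2 and Tra2b stayed positive and Srpk3 negative. Tra2b was the only member past 1.5-fold. Its log2 ratio of 0.96 is larger than the largest of these shifts, 0.32, so its sign could not change. Rescaling without mitochondrial genes and ribosomal RNA, which hold 26.4% of the FPKM sum in WT and 40.9% in SRSF1-MKO, changed no sign. The count of members at least 1.5-fold higher was 1 and became 3 at the smaller fold tried and 0 at a fold of 2. The count at least 1.5-fold lower was 0 and became 1 (Srpk3) under each centring, under the common sum and at the smaller fold. With the median of 0.32 taken off, the log2 ratio of the summed levels went from 0.21 to -0.11 for Clk, from -0.01 to -0.34 for Srpk and from 0.68 to 0.36 for Tra2. Without its most abundant member it was 0.32 for Srpk and 0.19 for Tra2. Filters changed no count. Depth limits Clk2, on 465 and 629 reads, and Srpk1, on 550 and 541, most.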
